A study of Homo sapiens with 12 samples.

Results

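The genes described here are 40 genes of DNA replication and mitosis, measured in Ishikawa cells, an endometrial cancer cell line of epithelial origin. They were followed across 4 groups that combine a transfected siRNA with a peptide, as a test of whether a growth effect could be seen at the level of RNA. Members were found by gene symbol in the platform annotation of the array. Genes on more than 1 probe set were read from their brightest by mean over all 12 arrays, so that no difference between groups entered the choice. All 40 were found, of 19775 genes with a probe set of their own, and none was lost to a filter on low values because no such filter was used. Cells transfected with GPR54 siRNA formed 2 groups, one given metastin-10 and the other control peptide. Cells transfected with negative control siRNA formed the other 2, likewise divided by peptide, and each group had 3 arrays. GPR54 is the product of KISS1R, the kisspeptin receptor, and metastin-10 is a short peptide agonist of it. Every sample was transfected for 48 h and then given peptide for 24 h, with metastin-10 at 10 µM. The arrays were Affymetrix U133 Plus 2.0, and their values are on the log2 scale, so that a difference of 1 is a doubling of signal.

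Cells prepare to copy their DNA by loading the MCM2 to MCM7 helicase onto origins with the help of CDC6 and CDT1, and then fire those origins with CDC45 and the GINS complex. Genes for these steps, and for the enzymes that make deoxynucleotides, are switched on late in G1, when cyclin D and cyclin E kinases inactivate the retinoblastoma protein and release E2F factors. Genes for mitosis peak later, in G2 and M, through promoter elements called CHR (cell cycle genes homology region) and CCAAT boxes, which are read by the DREAM and MYB-MuvB complexes, FOXM1 and NF-Y. A population of cells that leaves the cell cycle normally loses RNA of both classes together. In RNA from a whole culture, fewer cycling cells and less RNA per cycling cell cannot be told apart.

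The promoter letters behind these classes are shown because the members of each class differ in them. Of the 40 members, 30 had an entry in the RefSeq promoter table (assembly GRCh38.p14), which covers 300 bases around each gene's start. E2F letters, searched on both strands as TTTCGCGC, TTTGGCGC, TTTCCCGC and TTTGCCGC, occurred in 10 of 15 promoters of replication and G1 members and in 1 of 15 promoters of mitosis members, that of CDK1. They occurred in 3.33% of all 27305 promoters in the table. CHR letters, searched as TTTGAA and TTCGAA, showed the opposite split, in 2 of 15 replication and G1 promoters and in 10 of 15 mitosis promoters, against 16.6% of all promoters. The letters CCAAT occurred in 10 of 15 replication and G1 promoters and in 13 of 15 mitosis promoters, against 35.7% of all promoters. CHR with CCAAT in the same promoter was found in 9 of 15 mitosis members, against 6.58% of all promoters. None of these motifs is contained in another. A match describes the letters only and shows neither binding nor use of the site. The 5 stretches below run 5′ to 3′ on the gene's own strand, from 170 bases before the start to 20 bases from it on, with E2F letters in capitals for CDT1 and GINS2 and CHR letters in capitals for CDC20, KIF11 and MKI67. They are CDT1 at chr16:88803619-88803808 on the plus strand, GINS2 at chr16:85688935-85689124 on the minus strand, CDC20 at chr1:43358811-43359000 on the plus strand, KIF11 at chr10:92592960-92593149 on the plus strand, and MKI67 at chr10:128126404-128126593 on the minus strand. CDT1 and GINS2 each hold the reverse complement of TTTCCCGC just before the start, CDC20 holds 1 CHR with CCAAT on either side, KIF11 holds the reverse complement of TTTGAA, and MKI67 holds TTTGAA at 2 places.
CDT1: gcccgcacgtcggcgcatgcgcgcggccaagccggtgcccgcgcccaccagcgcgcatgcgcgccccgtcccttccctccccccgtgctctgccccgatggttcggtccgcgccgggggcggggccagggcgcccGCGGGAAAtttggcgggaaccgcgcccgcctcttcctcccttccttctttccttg
GINS2: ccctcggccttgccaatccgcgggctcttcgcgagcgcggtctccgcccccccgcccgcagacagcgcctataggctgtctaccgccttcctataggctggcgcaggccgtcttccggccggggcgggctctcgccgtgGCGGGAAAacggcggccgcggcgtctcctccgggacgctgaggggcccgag
CDC20: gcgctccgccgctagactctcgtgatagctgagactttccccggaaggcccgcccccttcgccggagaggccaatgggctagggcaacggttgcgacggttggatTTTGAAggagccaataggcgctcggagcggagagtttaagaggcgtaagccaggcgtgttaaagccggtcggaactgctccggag
KIF11: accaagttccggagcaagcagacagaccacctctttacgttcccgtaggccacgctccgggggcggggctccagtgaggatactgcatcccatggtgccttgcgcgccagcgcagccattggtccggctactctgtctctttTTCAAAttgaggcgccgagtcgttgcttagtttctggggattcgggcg
MKI67: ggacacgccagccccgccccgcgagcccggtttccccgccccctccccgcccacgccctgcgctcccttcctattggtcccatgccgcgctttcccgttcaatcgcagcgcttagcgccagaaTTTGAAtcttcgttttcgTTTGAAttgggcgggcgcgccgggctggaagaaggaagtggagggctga

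The check of the targeted gene went against the label. KISS1R averaged 9.43 ± 0.16 in GPR54 siRNA with metastin-10, 9.42 ± 0.05 in GPR54 siRNA with control peptide, 8.40 ± 0.04 in control siRNA with metastin-10 and 9.28 ± 0.13 in control siRNA with control peptide (log2, SD, n = 3 each). The arrays labelled GPR54 siRNA thus had no lower level of the target, and the names of the groups below are those of the labels only. The line's epithelial markers KRT8, KRT18, KRT19, EPCAM and CDH1 were high, between 12.17 and 13.99 (mean log2 of 12 arrays). Of the Müllerian markers, PAX8, SOX17 and EMX2 stood at 10.81, 10.84 and 10.51, and ESR1 was lower at 8.59. The leukocyte genes PTPRC, CD3E, CD14 and LYZ lay between 3.48 and 5.20. The endothelial genes CDH5, PECAM1 and VWF stood at 3.42, 5.81 and 6.97. Of the stromal markers, COL3A1, LUM, DCN and PDGFRB lay between 2.56 and 5.18, and COL1A1 was the exception at 9.84. Array medians ran from 5.13 to 5.22, and arrays correlated with each other at 0.992 to 0.998 across probe sets. The 4 arrays of replicate 3 stood apart from the other 8. The signal at the 3′ end of beta-actin exceeded that at its 5′ end by 0.29 to 0.36 in replicate 3 and by 0.66 to 0.90 in replicates 1 and 2 (log2). The labels call the replicates biological without saying that they were separate cultures, so that the tests below measure the spread between these samples.

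Replication and mitosis genes stayed at closely similar levels in all 4 groups. No member passed an adjusted p of 0.05 in any of the 4 comparisons between groups or in the interaction of siRNA and peptide (limma, Benjamini-Hochberg over all 54613 probe sets, smallest adjusted p among members 0.415). The share of all genes that passed was 0.607% for metastin-10 against control peptide with control siRNA, 0% for the same peptides with GPR54 siRNA, 0% for GPR54 siRNA against control siRNA with control peptide, 1.04% for the siRNAs with metastin-10, and 0.106% for the interaction. With the replicate number as a block, 202 genes passed in the first of these and 2 in the siRNAs with control peptide, and again no member. At shares this low, 0 calls among 40 genes is close to the background, and the size of the intervals carries more information than the count. At an unadjusted p under 0.05, which is the same as a 95% interval that leaves out 0, the members counted 1 (CCND3, higher), 0, 1 (CCNE2, lower), 1 (CCNE2, lower) and 0 in those comparisons. The shares of all genes were 11.9%, 1.81%, 2.8%, 13.1% and 6.28%.

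The intervals were narrow. For metastin-10 against control peptide with control siRNA, differences of the members ran from -0.24 (CDT1) to 0.20 (CCND3), and all 40 intervals lay within a 1.5-fold change either way, as did those of 91.4% of all genes. The lowest bound of any member was -0.49 and the highest 0.55. With GPR54 siRNA, the effect of metastin-10 ran from -0.10 (MKI67) to 0.06 (TOP2A), and 40 of 40 intervals again lay within 1.5-fold, against 97.7% of all genes. That range depended on single arrays. Without GPR54 siRNA with control peptide replicate 3 it was -0.22 (CCND2) to 0.14 (TOP2A), with 38 intervals within 1.5-fold. Leaving out a metastin-10 array of that siRNA label gave a lowest value of -0.17 (CDT1) without replicate 1 and of -0.18 (CCND1) without replicate 2, again with 38 within 1.5-fold in the second case, and a highest value of 0.12 (CCND1) without replicate 3. For GPR54 siRNA against control siRNA, the range was -0.19 (CCNE2) to 0.13 (AURKB) with control peptide, with 40 of 40 intervals within 1.5-fold, against 97.3% of all genes. With metastin-10 it was -0.23 (CCND1) to 0.11 (AURKB), with 39 of 40 within 1.5-fold, against 91.8% of all genes, and CCND1 reaching to -0.65 as the exception. CCND1 had -0.36 without replicate 2 of GPR54 siRNA with metastin-10 or without replicate 3 of control siRNA with metastin-10, each with 38 intervals within 1.5-fold. Without replicate 3 of GPR54 siRNA with metastin-10, the highest value was 0.21 (CDT1). Interaction terms, which have wider errors, stayed within 1.5-fold for 38 of 40 members, all but CCND1 and CCND2, against 74.3% of all genes. Every member's interval lay within 2-fold in all 5 when all arrays were used. Over all alternatives, the lowest counts within 1.5-fold were 39 for metastin-10 with control siRNA, 38 in each of the other 3 comparisons and 37 for the interaction. CDT1 had the highest interaction, 0.16 with all arrays and 0.27 without replicate 3 of GPR54 siRNA with metastin-10.

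The centre of the list also lay close to that of all genes. The members' median difference was -0.00046 for metastin-10 with control siRNA, where all genes had 0.0072, and 19 members lay above 0 and 21 below, while 52% of all genes lay above 0. It was -0.03 for metastin-10 with GPR54 siRNA (all genes -0.0097), with 34 of 40 members below 0, while 44.2% of all genes lay above 0. For GPR54 siRNA against control siRNA it was 0.03 with control peptide (all genes 0.02), with 25 members above 0, and -0.03 with metastin-10 (all genes 0.00074), with 13 above 0. Of all genes, 59.4% and 50.2% lay above 0 in these comparisons. In the interaction 11 members lay above 0, against 47.8% of all genes, and the median was -0.04 (all genes -0.0089). Without the array of replicate 3 in GPR54 siRNA with metastin-10, the medians of the comparisons that use it were -0.00054 for metastin-10 with GPR54 siRNA and 0.03 for the siRNAs with metastin-10. These comparisons share groups in pairs and are not independent of each other. The members also varied little: the median SD within groups was 0.08, against 0.13 for all genes, and the median width of an interval to either side was 0.18, or 1.13-fold, against 0.24 for all genes. Every member's mean lay above the array medians of 5.13 to 5.22, with CCND2 the lowest at 6.17. The set of all genes was not matched to the members for signal, here or for the shares within 1.5-fold.

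**Figure D1:**
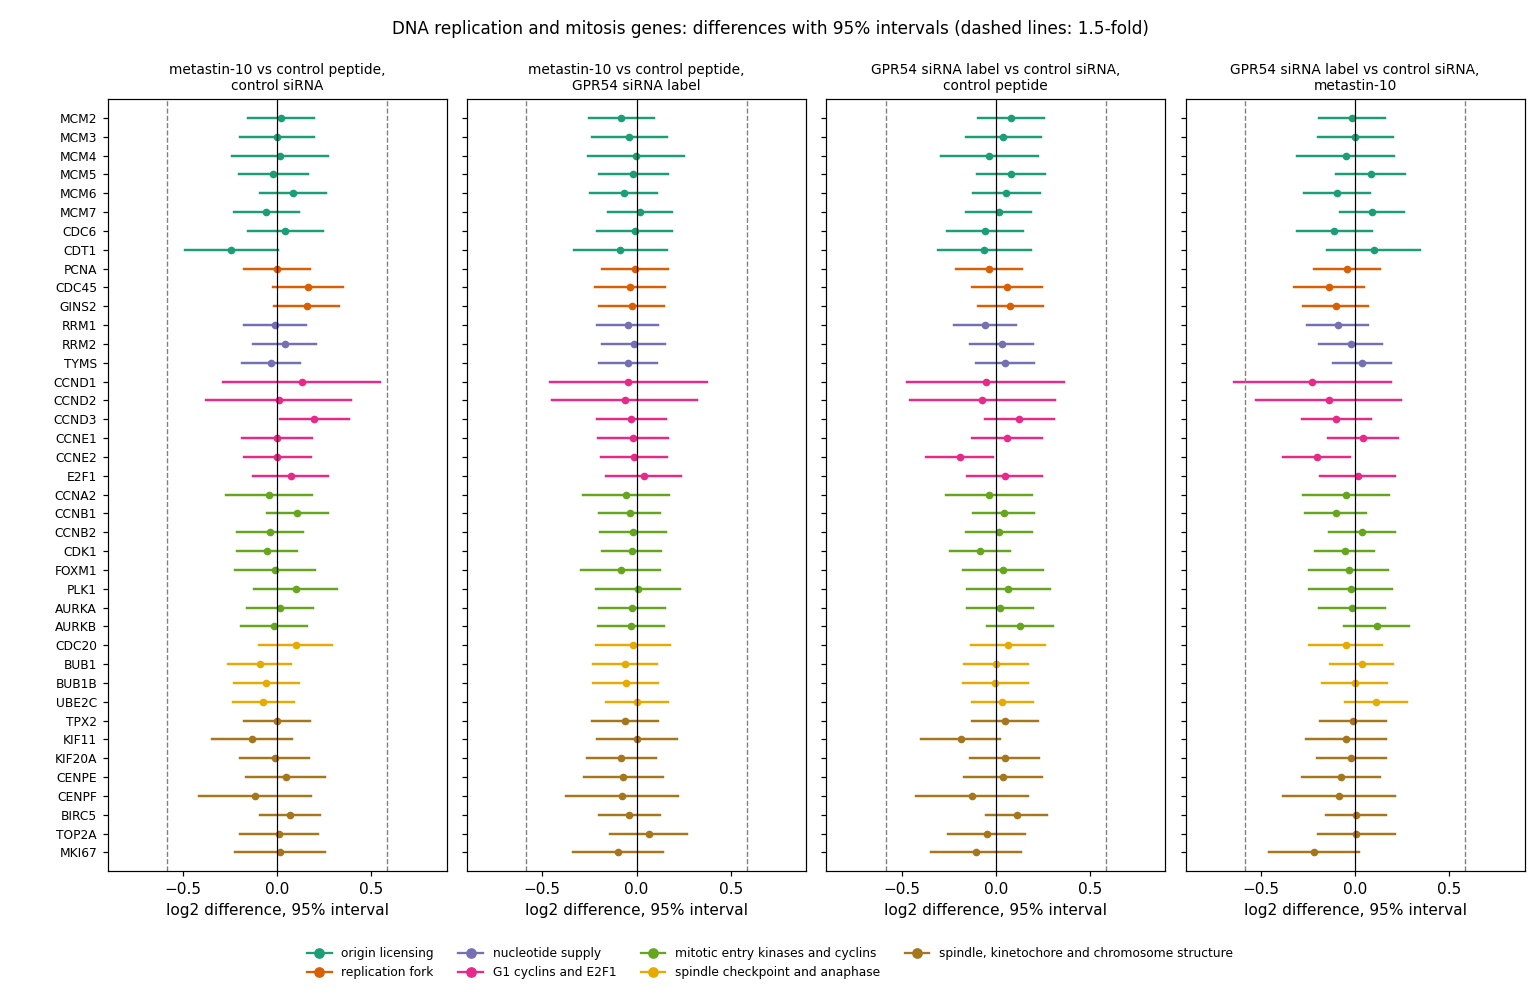
Difference of each of the 40 members in 4 comparisons, on the log2 scale, with its 95% interval from the limma fit (n = 3 arrays per group); colours give the role of the gene, and dashed lines mark a 1.5-fold change. All points lie between -0.24 and 0.20, and CCND1 with metastin-10 has the one interval that crosses a dashed line.

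The 8 origin licensing genes showed differences from -0.24 to 0.08 for metastin-10 with control siRNA, and the 6 MCM helicase subunits lay between -0.06 (MCM7) and 0.08 (MCM6). MCM2 had 10.67, 10.73 and 10.55 in GPR54 siRNA with metastin-10, 10.72, 10.81 and 10.66 in GPR54 siRNA with control peptide, 10.60, 10.68 and 10.72 in control siRNA with metastin-10, and 10.69, 10.61 and 10.65 in control siRNA with control peptide. Those groups overlap throughout. Its difference for metastin-10 with GPR54 siRNA was -0.08, with an interval of -0.25 to 0.09, and that for the siRNAs with control peptide was 0.08 (-0.09 to 0.26). CDT1, which loads the helicase and is destroyed once S phase starts, varied most among the licensing genes. It had 9.33, 9.21 and 8.94 in GPR54 siRNA with metastin-10, 9.36, 9.26 and 9.12 in GPR54 siRNA with control peptide, 9.05, 9.09 and 9.05 in control siRNA with metastin-10, and 9.30, 9.48 and 9.15 in control siRNA with control peptide. With control siRNA, its 3 metastin-10 arrays lay below the 3 control peptide arrays, a difference of -0.24 (95% interval -0.49 to 0.003, limma adjusted p = 0.476). Its probe set carries the platform's suffix for sets that can also bind other transcripts. CDT1's other probe set had -0.10 (-0.30 to 0.10) in that comparison, with groups that overlap. For metastin-10 with GPR54 siRNA that other set had 0.11, where the set used had -0.09. CDC6, the other loading factor, had differences between -0.11 and 0.04 in the 4 comparisons.

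At the replication fork, PCNA, the sliding clamp of the polymerases, had differences of -0.04 to -0.0019 in the 4 comparisons. CDC45, the helicase activator, had 8.48, 8.40 and 8.44 in GPR54 siRNA with metastin-10, 8.51, 8.42 and 8.50 in GPR54 siRNA with control peptide, 8.54, 8.46 and 8.75 in control siRNA with metastin-10, and 8.42, 8.41 and 8.43 in control siRNA with control peptide. One array, control siRNA with metastin-10 replicate 3, held the highest value. GINS2, a subunit of the GINS complex, had 10.24, 10.03 and 10.12 in GPR54 siRNA with metastin-10, 10.18, 10.14 and 10.16 in GPR54 siRNA with control peptide, 10.26, 10.16 and 10.29 in control siRNA with metastin-10, and 10.04, 10.11 and 10.10 in control siRNA with control peptide. With control siRNA, both genes lay higher in the 3 metastin-10 arrays than in the 3 control peptide arrays, by 0.16 each, and for GINS2 the interval was -0.02 to 0.33 (limma adjusted p = 0.515). GINS2 and CDT1, whose printed stretches both hold E2F letters, lay on opposite sides of 0 in this comparison. Over the 11 members with E2F letters, the median difference for metastin-10 with control siRNA was -0.0018, and over the 12 members with CHR letters it was -0.03. For the siRNAs with metastin-10 these medians were -0.02 and -0.05.

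At their brightest probe sets, the nucleotide enzymes RRM1 and RRM2, the subunits of ribonucleotide reductase, and TYMS, which makes thymidylate, moved by no more than 0.09 in any comparison between groups. RRM1 varied most of these and had 11.28, 11.30 and 11.23 in GPR54 siRNA with metastin-10, 11.32, 11.30 and 11.32 in GPR54 siRNA with control peptide, 11.40, 11.39 and 11.29 in control siRNA with metastin-10, and 11.43, 11.39 and 11.29 in control siRNA with control peptide. Its groups overlap in every comparison. RRM2's other probe set had -0.19 (-0.35 to -0.03, limma adjusted p = 0.404) between the siRNAs with metastin-10, and those groups do not overlap.

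The G1 cyclins varied most among the roles. CCND1, cyclin D1, had 11.22, 11.42 and 10.82 in GPR54 siRNA with metastin-10, 11.27, 11.42 and 10.90 in GPR54 siRNA with control peptide, 11.39, 11.63 and 11.13 in control siRNA with metastin-10, and 11.44, 11.39 and 10.93 in control siRNA with control peptide. The lowest value in each group was that of replicate 3, and the groups overlap. At CCND1's other probe set the siRNA groups with metastin-10 do not overlap, with a difference of -0.20 (-0.43 to 0.02). That probe set had 0.20 (-0.03 to 0.43) for metastin-10 with control siRNA. CCND3, cyclin D3, had 8.19, 8.27 and 8.25 in GPR54 siRNA with metastin-10, 8.26, 8.36 and 8.19 in GPR54 siRNA with control peptide, 8.41, 8.36 and 8.25 in control siRNA with metastin-10, and 8.23, 8.15 and 8.05 in control siRNA with control peptide. With control siRNA its 3 metastin-10 arrays lay above the 3 control peptide arrays, by 0.20 (0.01 to 0.38, limma adjusted p = 0.435). The interaction for CCND3 was -0.22 (-0.48 to 0.03, limma adjusted p = 0.881). E2F1, which drives the genes of S phase, had differences between 0.01 and 0.07 in the 4 comparisons.

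CCNE2, cyclin E2, lay lower in the arrays labelled GPR54 siRNA with both peptides. It had 9.52, 9.50 and 9.43 in GPR54 siRNA with metastin-10 and 9.40, 9.56 and 9.52 in GPR54 siRNA with control peptide, against 9.67, 9.77 and 9.63 in control siRNA with metastin-10 and 9.74, 9.73 and 9.59 in control siRNA with control peptide. None of the 6 values under GPR54 siRNA reached any of the 6 under control siRNA. The differences were -0.20 with metastin-10 (-0.38 to -0.03, limma adjusted p = 0.415) and -0.19 with control peptide (-0.37 to -0.01, limma adjusted p = 0.9998). Neither passed the threshold over all probe sets. A second probe set of CCNE2 had -0.06 with metastin-10 (-0.71 to 0.60) and -0.09 with control peptide (-0.75 to 0.57). Those intervals are too wide to tell such differences from 0. CCNE1, the other cyclin E, had 0.04 and 0.06.

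Among the genes of mitotic entry, CCNB1, CCNB2 and CDK1 form the kinase that starts mitosis. CCNA2, cyclin A2, had 10.27, 10.42 and 10.10 in GPR54 siRNA with metastin-10, 10.32, 10.39 and 10.25 in GPR54 siRNA with control peptide, 10.18, 10.46 and 10.30 in control siRNA with metastin-10, and 10.37, 10.46 and 10.24 in control siRNA with control peptide. All 4 groups overlap. AURKB, the kinase of the chromosomal passenger complex, had 8.94, 8.91 and 8.92 in GPR54 siRNA with metastin-10 and 9.05, 8.90 and 8.90 in GPR54 siRNA with control peptide, against 8.81, 8.72 and 8.90 in control siRNA with metastin-10 and 8.76, 8.87 and 8.85 in control siRNA with control peptide. All 6 values under GPR54 siRNA lay above the 6 under control siRNA, some by less than the last digit printed, and the differences were 0.11 with metastin-10 and 0.13 with control peptide (95% interval -0.05 to 0.30). Its other probe set had 0.03 with metastin-10 and -0.003 with control peptide. AURKA, the kinase of the spindle poles, and PLK1, polo-like kinase 1, had differences of -0.02 to 0.10 in the 4 comparisons, and FOXM1, the activator of G2 and M genes, of -0.08 to 0.04.

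Counted over the list, 3 of 40 members did not overlap between the siRNA labels in the same direction with either peptide, namely CCNE2 and CDK1 lower and AURKB higher, against 1.79% of all genes. For CCNE2 and AURKB all 6 arrays stood apart from the other 6, against 0.976% of all genes. These counts are small and CDK1's 3 other probe sets did not share one direction. In single comparisons the count of members whose groups did not overlap was 8 of 40 for metastin-10 with control siRNA (19.6% of all genes), 0 with GPR54 siRNA (4.68%), 4 for the siRNAs given metastin-10 (17.5%) and 5 for the siRNAs given control peptide (9.23%). The 8 were split by direction, with 5 higher under metastin-10 (CDC45, GINS2, CCND3, CCNB1 and BIRC5, against 8.72% of all genes) and 3 lower (CDT1, CDK1 and BUB1, against 10.9%).

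The spindle checkpoint and anaphase genes CDC20, BUB1, BUB1B and UBE2C had differences of -0.09 to 0.10 for metastin-10 with control siRNA and of -0.05 to 0.11 for the siRNAs with metastin-10. CDC20, which activates the anaphase-promoting complex, had 11.32, 11.33 and 11.09 in GPR54 siRNA with metastin-10, 11.34, 11.29 and 11.16 in GPR54 siRNA with control peptide, 11.33, 11.33 and 11.23 in control siRNA with metastin-10, and 11.18, 11.26 and 11.15 in control siRNA with control peptide. The groups overlap, and replicate 3 is the lowest of each.

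The 8 genes of spindle, kinetochore and chromosome structure include the motors KIF11 and KIF20A, the kinetochore proteins CENPE and CENPF, and MKI67, which encodes the proliferation antigen Ki-67. MKI67 had 9.14, 9.01 and 8.85 in GPR54 siRNA with metastin-10, 9.28, 9.08 and 8.92 in GPR54 siRNA with control peptide, 9.26, 9.11 and 9.28 in control siRNA with metastin-10, and 9.19, 9.31 and 9.10 in control siRNA with control peptide. Its groups overlap, and the largest difference, -0.22 between the siRNAs with metastin-10, had an interval of -0.46 to 0.02 (limma adjusted p = 0.541). With control siRNA, the difference between metastin-10 and control peptide was 0.01 for MKI67. KIF11, which pushes spindle poles apart, had 10.01, 10.12 and 9.88 in GPR54 siRNA with metastin-10, 9.89, 10.16 and 9.96 in GPR54 siRNA with control peptide, 10.00, 10.16 and 9.99 in control siRNA with metastin-10, and 10.20, 10.25 and 10.11 in control siRNA with control peptide. The difference between the siRNAs with control peptide was -0.19 (-0.40 to 0.02), and those groups overlap. KIF20A, a motor of cytokinesis, had 10.13, 10.08 and 9.92 in GPR54 siRNA with metastin-10, 10.22, 10.15 and 10.00 in GPR54 siRNA with control peptide, 10.08, 10.03 and 10.08 in control siRNA with metastin-10, and 10.07, 10.09 and 10.07 in control siRNA with control peptide. Its groups overlap in every comparison. TOP2A, the topoisomerase that untangles sister chromatids, had differences of -0.05 to 0.06, and BIRC5, or survivin, of -0.04 to 0.11.

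**Figure D2:**
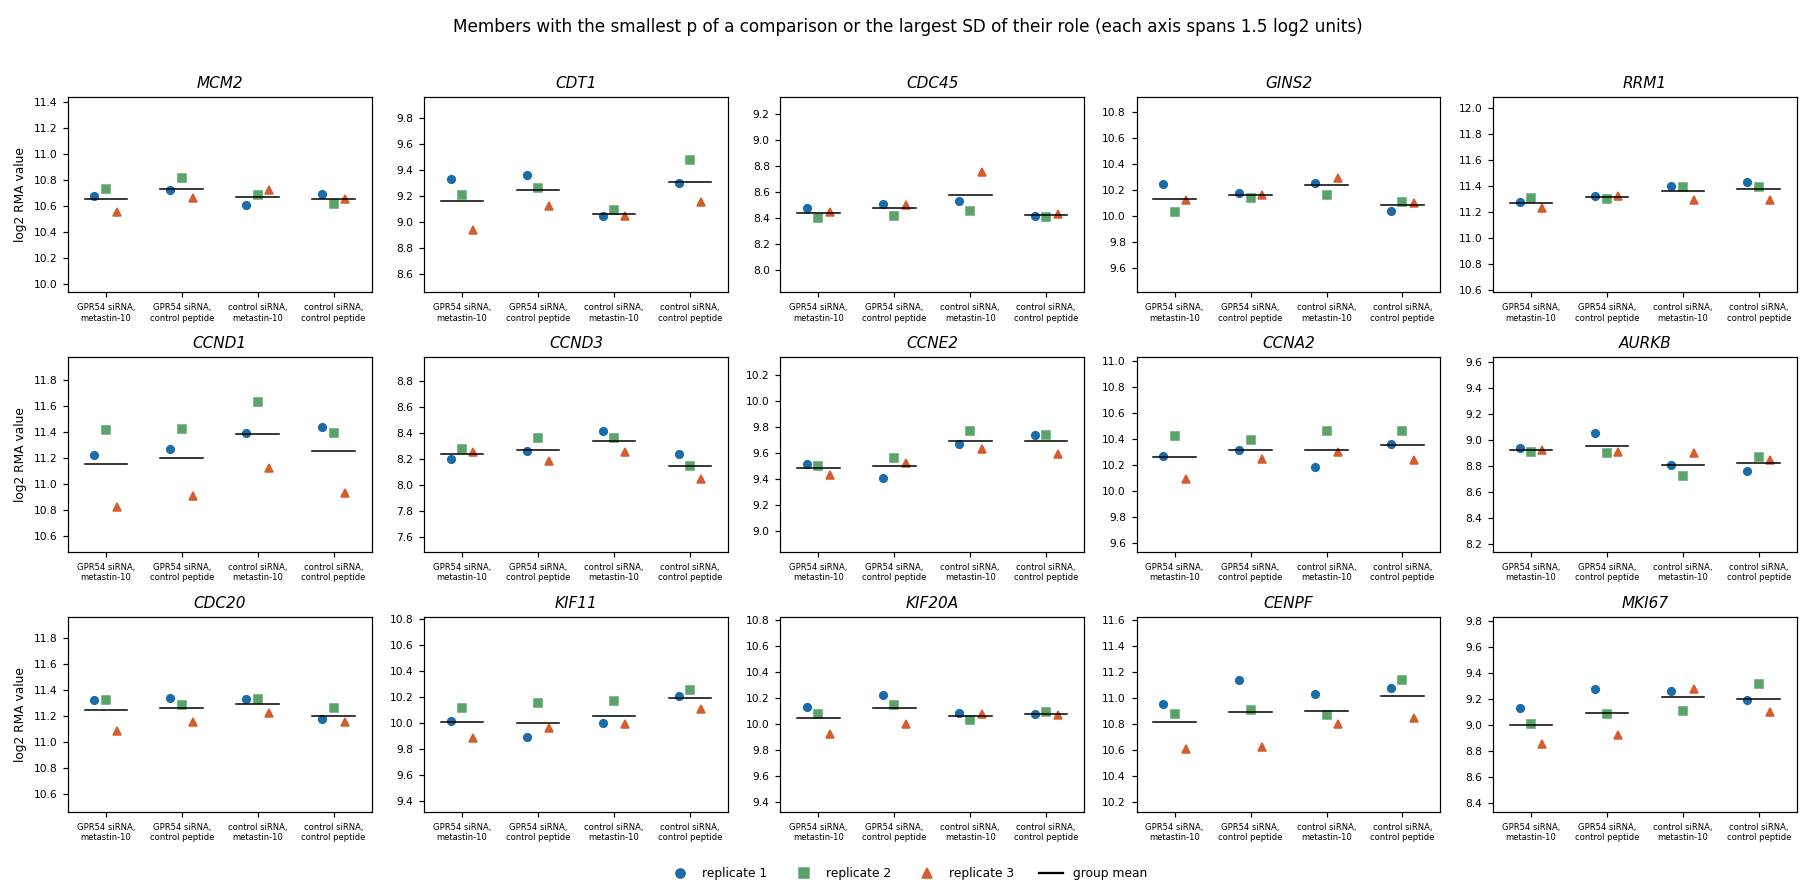
Log2 signal of 15 members in each of the 12 arrays, by group, with the group mean as a line; every panel spans 1.5 log2 units. In CCND1 and CENPF the replicate 3 point is the lowest in each group, and in CCNE2 the GPR54 siRNA points lie below the control siRNA points.

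Some of these genes also differed between replicates. In 6 of 40 members, all 4 replicate 3 arrays lay below the other 8, against 5.56% of all genes. They were CCND1 (-0.45 on average), CCND2 (-0.41), CENPF (-0.28), MCM4 (-0.21), FOXM1 (-0.15) and CCNE1 (-0.13). CENPF had 10.95, 10.87 and 10.61 in GPR54 siRNA with metastin-10, 11.14, 10.90 and 10.62 in GPR54 siRNA with control peptide, 11.03, 10.86 and 10.80 in control siRNA with metastin-10, and 11.07, 11.13 and 10.85 in control siRNA with control peptide. Other probe sets of the same genes did not all share this pattern. Of the members' 47 other probe sets, 3 lay below and 10 above in all 4 replicate 3 arrays. MCM4 had other probe sets between -0.29 and 1.04 and CENPF had 2 more, at -0.41 and -0.10, the same direction as the one used. CCND1's other probe set had 0.08, the 3 others of CCND2 had 0.0016 to 0.14, CCNE1's had -0.0059, and FOXM1 had no other. The remaining members with another probe set above in replicate 3 included CCNE2, BUB1 and BIRC5, at 0.76, 0.77 and 0.46. They also included RRM1, CCNA2 and TYMS, at 0.47, 0.38 and 0.23. The 3′ to 5′ signal of beta-actin given above moved with the same arrays, and its part in these values was not tested. Each group holds 1 array of replicate 3.

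One array held many of the lowest values. GPR54 siRNA with metastin-10 replicate 3 held the lowest value of 18 of the 40 members, while 15.9% of all genes were lowest there. The median deviation of the members in it from their own means was -0.09, with 31 of 40 below, and that of all genes was -0.004. The group means of these array medians were -0.02 ± 0.06 in GPR54 siRNA with metastin-10, 0.01 ± 0.04 in GPR54 siRNA with control peptide, 0.0069 ± 0.0064 in control siRNA with metastin-10 and -0.0044 ± 0.025 in control siRNA with control peptide (SD, n = 3 each). Between arrays of the same replicate number, GPR54 siRNA with metastin-10 minus GPR54 siRNA with control peptide was -0.02, -0.01 and -0.06, so all 3 were negative, while the medians of all genes differed by -0.0099, -0.0070 and 0.0019. Control siRNA with metastin-10 minus control siRNA with control peptide was 0.0083, -0.02 and 0.04, with no common sign. These differences of medians were not tested.

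**Figure D3:**
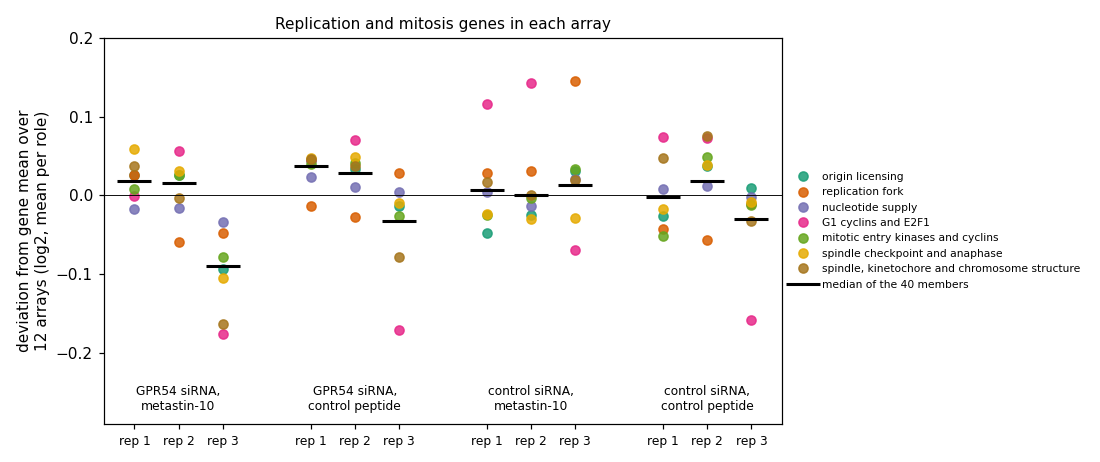
Mean deviation of each of the 7 roles from its genes' means over 12 arrays (log2, points), and the median over the 40 members (black bars), in each array. The bar of GPR54 siRNA with metastin-10 replicate 3 is the lowest, at -0.09. The mean of the G1 cyclins and E2F1 is below 0 in every replicate 3 array, though not every gene of that role is.

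The differences of the members' other probe sets were also centred close to 0, but some had wide intervals. These 47, of 27 members, gave 0 calls in all 5 comparisons (limma, adjusted p over all probe sets). At an unadjusted p under 0.05 there was only 1, of RRM2, at -0.19 in the siRNAs with metastin-10. The differences of the 47 ran from -0.28 (TOP2A) to 0.27 (BUB1) for metastin-10 with control siRNA, with a median of -0.0097, and from -0.25 to 0.20 for the siRNAs with metastin-10, with a median of -0.04. Not all of their intervals lay within 1.5-fold. For metastin-10 with control siRNA, that of a probe set of MCM4 ran from -1.03 to 0.74. That of CCNE2 ran from -0.73 to 0.59.

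Genes related to the members were taken from 5 further lists, of which 136 of 139 genes were measured. None of 43 other replication genes and none of 48 other mitosis genes passed in any comparison (limma), and their medians for metastin-10 with control siRNA were 0.0004 and -0.02. The largest of them by p in that comparison were TIPIN, of the fork protection complex, at 0.20, and CDC25C, the phosphatase that activates CDK1, at -0.26. None of 19 subunits of E2F, RB and DREAM complexes passed, although 15 of 19 lay below 0 for metastin-10 with control siRNA, with a median of -0.10, where 52% of all genes lay above 0. LIN54, the DREAM subunit that binds the CHR, was the lowest of them at -0.34.

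The lists of growth arrest genes and of cyclin-dependent kinases with their inhibitors held genes that passed the test. These lists were chosen with earlier results of these data known. Their calls are thus a description and not an independent contrast with the members. Of 15 genes of growth arrest and quiescence, 3 fell (0.531% of all genes) and 0 rose (0.0759%) in control siRNA with metastin-10 relative to control peptide. Differences of all 15 were negative, while 52% of all genes lay above 0, and their median was -0.18. BTG1, an antiproliferative gene, had 8.79, 8.97 and 8.88 in control siRNA with metastin-10, against 9.55, 9.55 and 9.48 in control siRNA with control peptide, a difference of -0.65 ± 0.09 (SE, limma adjusted p = 0.00611). The arrays labelled GPR54 siRNA had BTG1 at 9.70, 9.73 and 9.55 with metastin-10 and at 9.74, 9.71 and 9.56 with control peptide. The 3 metastin-10 arrays with control siRNA were the lowest of the 12. TXNIP, an inhibitor of thioredoxin and of glucose uptake, had 11.65, 11.67 and 11.55 in GPR54 siRNA with metastin-10, 11.70, 11.67 and 11.59 in GPR54 siRNA with control peptide, 11.26, 11.24 and 11.15 in control siRNA with metastin-10, and 11.76, 11.73 and 11.66 in control siRNA with control peptide. With control siRNA it fell by 0.50 under metastin-10 (limma adjusted p = 0.0134). KLF4, a transcription factor that restrains proliferation in epithelia, had 7.26, 7.21 and 7.11 in GPR54 siRNA with metastin-10, 7.17, 7.21 and 7.12 in GPR54 siRNA with control peptide, 6.62, 6.70 and 6.61 in control siRNA with metastin-10, and 7.14, 7.20 and 7.05 in control siRNA with control peptide. With control siRNA it fell by 0.49 under metastin-10 (limma adjusted p = 0.0176).

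Of 11 cyclin-dependent kinases and their inhibitors, 1 fell (0.531% of all genes) in control siRNA with metastin-10 and none rose (0.0759%). Differences of the 11 ran from -0.77 to 0.39, with 5 above 0 and 6 below, while 52% of all genes lay above 0. At an unadjusted p under 0.05 (limma), 1 was higher and 2 were lower. Of all 19775 genes, 969 were higher and 1385 lower by that rule. CDKN1C, the inhibitor p57, had 8.94, 8.85 and 8.60 in GPR54 siRNA with metastin-10 and 8.78, 8.88 and 8.58 in GPR54 siRNA with control peptide. It had 7.82, 7.91 and 7.68 in control siRNA with metastin-10, against 8.67, 8.69 and 8.37 in control siRNA with control peptide, a difference of -0.77 ± 0.12 (SE, limma adjusted p = 0.0171). Between the siRNAs with metastin-10, differences of the 11 ran from -0.42 to 0.997, with 9 above 0 and 2 below. Of all genes, 50.2% lay above 0 there. In that comparison 2 of 11 rose (0.966% of all genes) and 0 fell (0.0708%). These were CDKN1C, higher by 0.997 (limma adjusted p = 0.00253) and CDKN1A, the inhibitor p21, higher by 0.58 (limma adjusted p = 0.00577). CDKN1A had 8.45, 8.62 and 8.53 in GPR54 siRNA with metastin-10, against 8.07, 7.88 and 7.93 in control siRNA with metastin-10, and 8.44, 8.41 and 8.35 in GPR54 siRNA with control peptide, against 8.39, 8.34 and 8.34 in control siRNA with control peptide. In the same comparison BTG1, KLF4 and TXNIP rose, by 0.78, 0.55 and 0.41 (limma adjusted p = 0.00111, 0.00575 and 0.0337). Both comparisons use the control siRNA with metastin-10 arrays, so they are not separate evidence. With GPR54 siRNA, metastin-10 against control peptide called none of the genes of these lists (limma), nor did the interaction, in which BTG1 had 0.64 (limma adjusted p = 0.124). The calls of CDKN1C, TXNIP and KLF4 with control siRNA were lost when single arrays were left out, with an adjusted p of up to 0.103, 0.0856 and 0.110, and that of TXNIP with metastin-10 in 9 of 12 such fits. Fitting only the groups compared ended the calls of CDKN1A and KLF4 between the siRNAs with metastin-10 (limma adjusted p = 0.120 and 0.108), and that of CDKN1A was also lost with replicates 1 and 2 only (limma adjusted p = 0.0555). BTG1 kept its calls in every such fit, but reading it as the mean of its probe sets gave -0.36 with control siRNA (limma adjusted p = 0.0558).

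**Figure D4:**
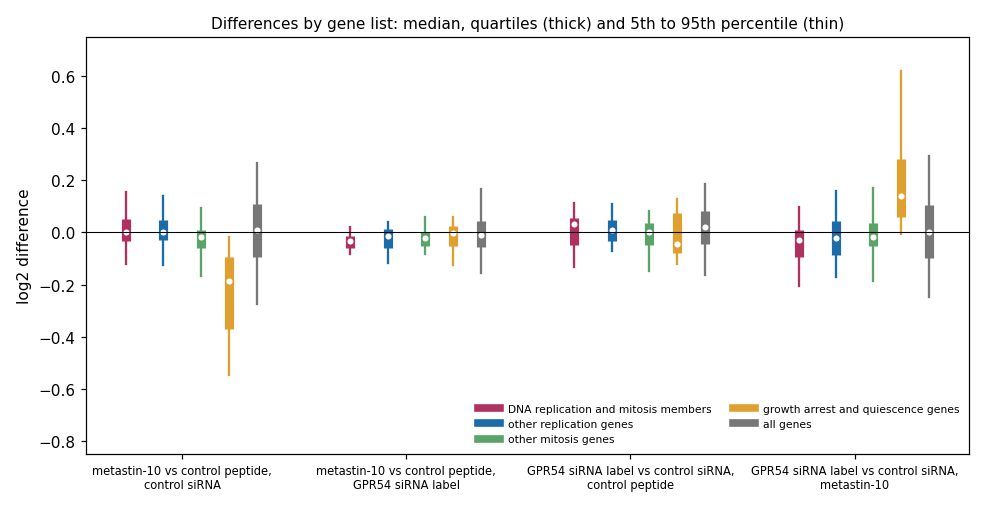
Median (white point), quartiles (thick bar) and 5th to 95th percentile (thin line) of the log2 difference over the 40 members, the other replication genes, the other mitosis genes, the growth arrest genes and all genes, in 4 comparisons. The members and both related lists are centred near 0 in every comparison, and the growth arrest genes have a median of -0.18 for metastin-10 with control siRNA and 0.14 for the siRNAs with metastin-10.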

How the data were processed

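RNA of 12 samples was hybridised to 1-colour arrays. The authors deposited 1 table of log2 expression values; RMA is the method that the submitters' processing notes name, and its version is not given in the sources used here. RMA corrects background, sets all arrays to the same distribution and summarises probes, so a shift of most genes one way would not be seen, and differences of dim probe sets are compressed. The precision is limited by the number of arrays. Of 54675 probe sets, 62 controls were left out; 41091 of the rest have 1 gene in the platform annotation, 1801 several, and 11721 (21.5%) are not listed. No value filter was applied. R 4.3.3 with limma 3.58.1 fitted 4 group means to all 12 arrays (8 residual degrees of freedom), with empirical Bayes variances and Benjamini-Hochberg adjustment over 54613 probe sets. Intervals are 95% and unadjusted. Shares of genes use the brightest probe set of each of 19775 genes.

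The members, lists and limits were chosen with earlier results of these data known. Any member could be named; values in every array are given for the 3 members with the smallest p of each comparison and the most variable member of each role; of related lists, genes past the threshold (up to 4, here with all array values) or else the one with the smallest p could be named; KISS1R was named as the target. Values of CENPF fall under the most variable members. Deviations of same-numbered replicates correlated at 0.17 to 0.44 for metastin-10 with control siRNA and at 0.26 to 0.52 with GPR54 siRNA. For the siRNAs they correlated at 0.11 to 0.54 with control peptide and at -0.15 to 0.26 with metastin-10. Arrays of another number correlated more in some cases. For metastin-10 with control siRNA, replicate 2 had 0.17 with its own number and 0.29 with another. For the siRNAs with control peptide, replicate 1 had 0.11 and 0.26. In the siRNAs with metastin-10, this held for replicates 1 and 3. In the remaining cases the same number correlated more. Alternatives were a replicate block, replicate 3 as a block or left out, other fits and single arrays left out. In simulated data for metastin-10 with control siRNA (54613 probe sets), 41% of changes of 0.5 and 93% of changes of 1 on the log2 scale were recovered, and 6 of 140 calls were false.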

Additional observations from a re-analysis of the deposited data

Results flagged for a closer look

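The effect of metastin-10 on KISS1R, the targeted receptor gene, differed between the siRNA labels. Metastin-10 minus control peptide was 0.01 with GPR54 siRNA. With control siRNA it was -0.88, with a 95% interval of -1.09 to -0.67. The interaction was 0.89 (0.59 to 1.19, limma adjusted p = 0.04996, n = 3 per group), and the 3 arrays of control siRNA with metastin-10 had the lowest values of all 12. That call lay at the threshold and was lost in 11 of 12 fits that left out 1 array. No interaction of a replication or mitosis member passed the threshold (limma, smallest adjusted p 0.881).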

How the results depend on the processing

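No member was called in any comparison under 20 alternative settings, which gave 99 results over the 5 comparisons (limma, smallest adjusted p 0.0948). Member differences stayed between -0.36 and 0.28. Counts over all genes moved more, given here for metastin-10 with control siRNA, the siRNAs with control peptide, the siRNAs with metastin-10 and the interaction, against 120, 0, 205 and 21 as reported. With replicate number as a block, in a paired analysis, these comparisons, the interaction apart, gave 202, 2 and 310; with replicate 3 as a block 252, 3, 359 and 41; with array weights 226, 6, 996 and 117. With replicates 1 and 2 only, the first was 75 and the interaction 1; with only the groups compared, the first was 40 and the siRNAs with metastin-10 were 41. Probe sets above the median level gave 214, 394 and 38 for the first, the siRNAs with metastin-10 and the interaction. The mean of a gene's probe sets gave 339 for the siRNAs with metastin-10 and 34 for the interaction, and centred arrays gave 1 for the siRNAs with control peptide. The members' median for the siRNAs with metastin-10 was 0.012 with replicates 1 and 2 only. The KISS1R interaction was 0.98 (adjusted p = 0.130) with those replicates and 0.91 (0.0718) with centred arrays. Leaving out single arrays gave 41 to 137, 0 to 2, 88 to 210 and 5 to 22 genes, medians of -0.055 to 0.027 for the siRNAs with metastin-10 and -0.079 to 0.0019 for the interaction, a KISS1R interaction of 0.81 to 0.97 (limma adjusted p up to 0.198), and KISS1R at -0.074 to 0.086 for metastin-10 with GPR54 siRNA, where it was 0.01. The cause of these moves was not tested. With 3 arrays per group, changes of members smaller than their intervals could not be detected.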
